A study of Mus musculus with 7 samples.

Results

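The genes of the mitochondrial genome were followed in RNA sequencing libraries of mouse prefrontal cortex. The members were all genes whose symbol in the GENCODE annotation starts with mt-, which gave 37 of the 43626 gene identifiers in the table: 13 protein-coding genes, 2 ribosomal RNA (rRNA) genes and 22 transfer RNA (tRNA) genes. The samples came from male C57BL/6J mice aged 8 weeks, with 3 wild-type (WT) libraries and 4 libraries of the genotype hDISC1AA/+, which is written as heterozygous and named for the neuronal scaffold gene Disc1. No further allele or treatment is named for either group, and the labels do not say what the altered allele is, how it was made or whether each library came from a separate mouse. P-values therefore rest on the spread over these 7 samples, some of which may be technical.

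Mitochondria keep a small circular genome that is transcribed from both strands as long precursor RNAs. Transfer RNAs sit between most of the other genes and are cut out of the precursors, which frees the messenger RNAs and rRNAs. The encoded proteins are core subunits of the respiratory chain (complexes I, III and IV) and of the ATP synthase (complex V), on which neurons depend for most of their ATP; all other subunits, and all proteins that copy, transcribe, process and translate this genome, are made from nuclear genes. The heavy-strand messenger RNAs and the rRNAs receive short poly(A) tails, while mature tRNAs end in CCA.

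Depth was 33512557 to 36005116 assigned reads in 6 libraries and 63845254 in WT replicate 1. For 1 column the name gives the genotype hDISC1AA/+ while its number fits no sample title; it is called the unnumbered hDISC1AA/+ library. All 12 markers of cortical neurons were detected in every library, with summed normalized counts of 365357 to 368571 in WT and 344247 to 373414 in hDISC1AA/+. A normalized count is the authors' deposited value, reads divided by 1 size factor per library. Disc1 itself had normalized counts of 46.9 to 109.0 in WT and 60.3 to 85.4 in hDISC1AA/+, which does not check the labels, since these do not say how the allele bears on its RNA. WT replicate 1 and hDISC1AA/+ replicate 1 stood apart from the other libraries in the mitochondrial genes. The first also stood apart in cell-type markers and depth. The second had the lowest summed astrocyte markers and the highest summed blood markers of all libraries. In bulk tissue, fewer mitochondria-rich cells and less mitochondrial RNA per cell cannot be told apart.

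Mitochondrial transcripts took a similar share of the reads in 5 of the 7 libraries. The share was somewhat higher in WT replicate 1 and far lower in hDISC1AA/+ replicate 1. The 37 genes together took 6.94%, 5.17% and 5.14% of the assigned reads in WT replicates 1 to 3. In hDISC1AA/+ the share was 1.94% for replicate 1, 5.27% for the unnumbered library, and 6.05% and 5.54% for replicates 3 and 4. The group means were 5.75% ± 1.03 (SD, n = 3) in WT and 4.70% ± 1.87 (SD, n = 4) in hDISC1AA/+, and the groups overlapped. The difference of -1.05 percentage points was -0.128 without hDISC1AA/+ replicate 1 and 0.466 without both that library and WT replicate 1. Most of these reads came from coding genes, at 4.46% to 5.93% of all assigned reads in 6 libraries and 1.78% in hDISC1AA/+ replicate 1. The rRNA genes took 0.160% in hDISC1AA/+ replicate 1 and 0.680% to 0.997% elsewhere.

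The rRNA genes lie just downstream of the heavy-strand promoter and give the RNAs of the mitochondrial ribosome. The gene for the small-subunit rRNA, mt-Rnr1 (chrM:70-1024, plus strand), stood at normalized counts of 161599, 107588 and 105665 in WT replicates 1 to 3 and at 20321, 115056, 125528 and 117655 in hDISC1AA/+ replicate 1, the unnumbered library and replicates 3 and 4. The gene for the large-subunit rRNA, mt-Rnr2 (chrM:1094-2675, plus strand), had 246961, 154003 and 151289 in WT and 36241, 167947, 184188 and 169742 in hDISC1AA/+ in the same order. Both were highest in WT replicate 1 and lowest in hDISC1AA/+ replicate 1, and both groups overlapped. The ratio of mt-Rnr2 to mt-Rnr1 was 1.43 to 1.53 in 6 libraries and 1.78 in hDISC1AA/+ replicate 1.

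Complex I takes electrons from NADH, and 7 of its subunits are encoded here. In the order of libraries just given, mt-Nd1 (chrM:2751-3707, plus strand) stood at normalized counts of 293937, 188388 and 192673 in WT and 21462, 184637, 217992 and 196264 in hDISC1AA/+. The next coding gene, mt-Nd2 (chrM:3914-4951, plus strand), had 207283, 135042 and 134560 in WT and 19337, 118850, 151438 and 133591 in hDISC1AA/+. For both, 1 hDISC1AA/+ library lay far under all others and the other 3 lay within the WT range or slightly under it. The values of mt-Nd4 (chrM:10167-11544, plus strand) were 175903, 135555 and 116312 in WT and 48448, 135163, 151811 and 134393 in hDISC1AA/+. Those of mt-Nd5 (chrM:11742-13565, plus strand), the longest gene of the genome, were 297298, 182161 and 209295 in WT and 92050, 152273, 217010 and 189096 in hDISC1AA/+. In mt-Nd4 and mt-Nd5 the low library kept a larger part of the usual level than in mt-Nd1 and mt-Nd2. The 1 coding gene annotated on the minus strand, mt-Nd6 (chrM:13552-14070), had 54489, 25553 and 26253 in WT and 464.3, 27348, 31034 and 24603 in hDISC1AA/+. Its ratio to the overlapping mt-Nd5 was 0.125 to 0.183 in 6 libraries and 0.00504 in hDISC1AA/+ replicate 1. The counting is not stated to use strand, so reads of mt-Nd6 cannot be told from antisense RNA of the same place.

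The short complex I genes had few reads. In WT, mt-Nd3 (chrM:9459-9806, plus strand) had 1106, 247.7 and 199.4 normalized counts, and in hDISC1AA/+ it had 0, 287.5, 316.3 and 244.8. In hDISC1AA/+ replicate 1 not 1 read was assigned to it, which allows up to 3 reads (a normalized count of 3.17, counting error only). In WT, mt-Nd4l (chrM:9877-10173, plus strand) had 1972, 213.9 and 190.7, and in hDISC1AA/+ it had 8.46, 201.4, 263.2 and 267.5. For both genes WT replicate 1 was several-fold above every other library, and the other 2 WT libraries overlapped with the 3 higher hDISC1AA/+ libraries.

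Complex III, which passes electrons on to cytochrome c, has 1 subunit of this genome, cytochrome b. Its gene mt-Cytb (chrM:14145-15288, plus strand) stood at normalized counts of 417838, 278723 and 300893 in WT and 122604, 280539, 333874 and 292482 in hDISC1AA/+. Complex IV (cytochrome c oxidase) has its 3 catalytic core subunits here. The gene of the first, mt-Co1 (chrM:5328-6872, plus strand), had 945880, 726653 and 697197 in WT and 323372, 696491, 862303 and 777155 in hDISC1AA/+. Per kilobase of gene and averaged over the 7 libraries, mt-Co1 had the highest level of the tested members (465007 normalized counts per kilobase), followed by mt-Cytb (253116) and mt-Nd1 (193365). The genes of the other core subunits had far lower counts. In WT, mt-Co2 (chrM:7013-7696, plus strand) had 11071, 2676 and 3023, and in hDISC1AA/+ it had 1126, 2743, 3438 and 3538. In WT, mt-Co3 (chrM:8607-9390, plus strand) had 15182, 7582 and 4198, and in hDISC1AA/+ it had 956.2, 7743, 8397 and 7864. The groups overlapped in each of these genes.

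Both ATP synthase genes, whose products sit in the proton channel of complex V, were low. In WT, mt-Atp6 (chrM:7927-8607, plus strand) stood at normalized counts of 8951, 1557 and 1165, and in hDISC1AA/+ it had 70.9, 1772, 1785 and 1902. The short mt-Atp8 (chrM:7766-7969, plus strand) had 561.6, 4.37 and 0 in WT and 0, 9.34, 8.67 and 16.5 in hDISC1AA/+. It was the 1 coding gene that did not pass the filter for testing (3 or more libraries with a normalized count of 10 or more). Its last 43 bases, in capitals in the sequence below, are also the first bases of mt-Atp6, and it is shown because WT replicate 1 held 875 of its reads and each other library 16 or fewer.
mt-Atp8: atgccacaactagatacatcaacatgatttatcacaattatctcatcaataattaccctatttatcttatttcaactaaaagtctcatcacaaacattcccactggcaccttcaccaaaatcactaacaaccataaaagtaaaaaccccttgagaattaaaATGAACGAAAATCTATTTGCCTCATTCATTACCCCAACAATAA

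**Figure D1:**
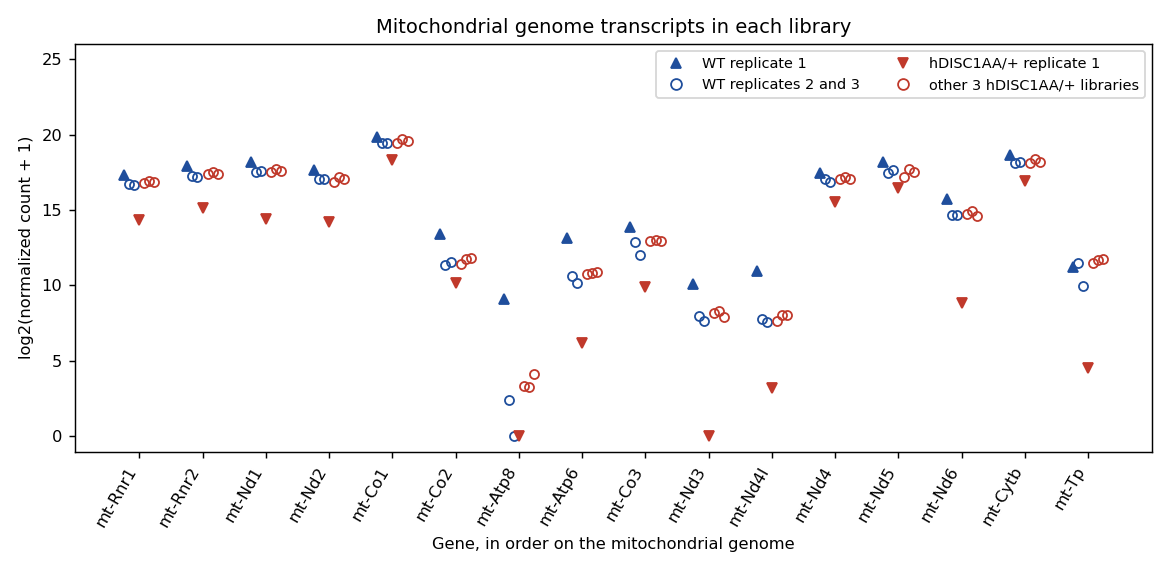
Normalized counts of the 15 tested members and mt-Atp8 in each library, as log2(normalized count + 1), in order on the mitochondrial genome. Triangles mark WT replicate 1 (pointing up) and hDISC1AA/+ replicate 1 (pointing down) and circles the other 5 libraries. hDISC1AA/+ replicate 1 is the lowest point for all 15 tested members, and the genes from mt-Co2 to mt-Nd4l lie well under those on either side.

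The make-up of the mitochondrial reads by their large contributors was nearly constant in 5 libraries and differed in hDISC1AA/+ replicate 1. Some small contributors varied among the 5. In WT replicate 3 mt-Co3 gave 0.216%, against 0.366% to 0.409% in the rest of the 5. There mt-Tp gave 0.0504%, against 0.145% to 0.171%. In WT replicates 2 and 3 and the 3 other hDISC1AA/+ libraries, mt-Co1 gave 35.9% to 37.9% of all reads assigned to the 37 genes, mt-Cytb 14.3% to 15.5% and mt-Nd1 9.51% to 9.91%. In hDISC1AA/+ replicate 1 mt-Co1 gave 47.1%, mt-Cytb 17.9% and mt-Nd1 3.13%. In that library mt-Nd6 gave 0.0676%, against 1.20% to 1.44% in the 5 libraries, and mt-Rnr1 2.96%, against 5.44% to 6.08%. In WT replicate 1 the large contributors were close to the 5 libraries (mt-Co1 33.3%, mt-Cytb 14.7% and mt-Nd1 10.3%). The short genes took more there, with mt-Nd4l at 0.0694% against 0.00981% to 0.0130% and mt-Atp6 at 0.315% against 0.0599% to 0.0936%.

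**Figure D2:**
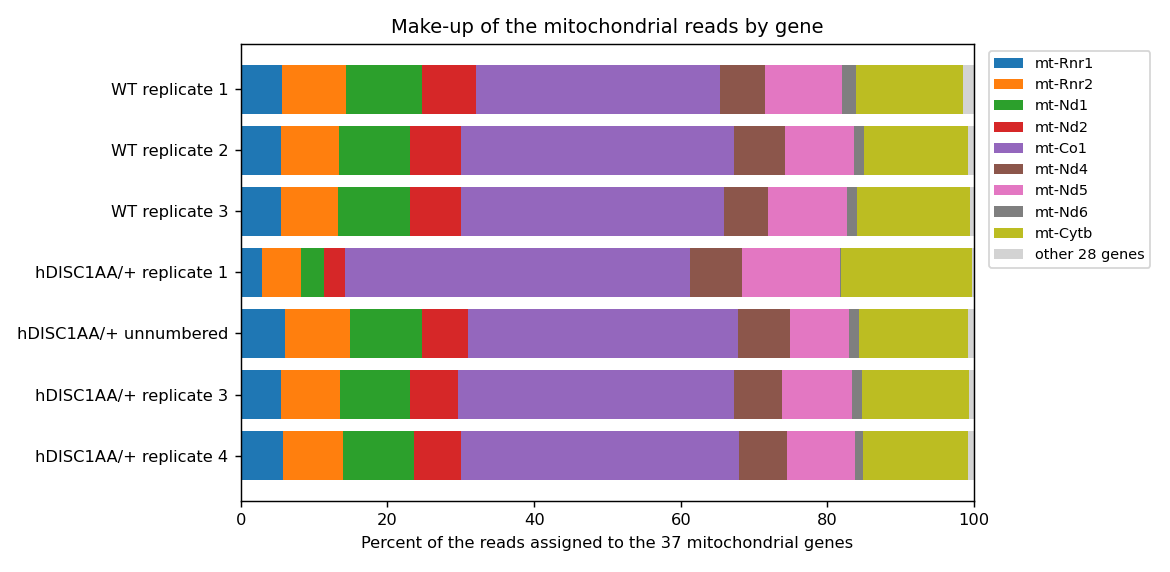
Percent of the reads assigned to the 37 mitochondrial genes that each gene took, 1 bar per library. The bar of hDISC1AA/+ replicate 1 has a wider mt-Co1 segment (47.1%) and narrow mt-Nd1 (3.13%) and mt-Nd6 (0.0676%) segments, and the other 6 bars are alike.

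How far each of these 2 libraries departed differed between genes, and in hDISC1AA/+ replicate 1 it went with gene length. Each was set against the median of the other 5 libraries. In hDISC1AA/+ replicate 1 the long genes mt-Nd5 (1824 bases), mt-Co1 (1545), mt-Cytb (1144) and mt-Nd4 (1378) were 2.05-fold, 2.25-fold, 2.39-fold and 2.79-fold lower. The rRNA genes were 4.63-fold (mt-Rnr2, 1582 bases) and 5.66-fold (mt-Rnr1, 955 bases) lower, and mt-Nd2 (1038 bases) and mt-Nd1 (957 bases) 6.96-fold and 8.98-fold. Most of the shorter genes departed further, though not in strict order of length: mt-Co3 (784 bases) was 8.10-fold lower, mt-Atp6 25-fold, mt-Nd4l (297 bases) 25.3-fold, mt-Nd6 (519 bases) 56.5-fold, and mt-Nd3 at least 78.1-fold, taking the floor of 3 reads for its count of 0. Among these shorter genes mt-Co2 (684 bases) departed least, at 2.68-fold lower. Across the 14 tested coding and rRNA genes, the log2 ratio of hDISC1AA/+ replicate 1 to the median had a Spearman rho of 0.83 with gene length (Pearson's r 0.83 with log2 length). These points share 1 library and 1 genome, and the value is a description. Over the 7 of these genes that no chromosome 1 copy matches, rho was 0.86. Among these, mt-Nd2, mt-Nd5 and mt-Rnr2 match other nuclear genes over part of their length.

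WT replicate 1 departed the other way. It was 1.30-fold to 1.57-fold higher than the median of the 5 libraries in mt-Co1, mt-Nd4, mt-Rnr1, mt-Cytb, mt-Rnr2, mt-Nd1, mt-Nd2 and mt-Nd5, 1.96-fold higher in mt-Co3 (784 bases) and 2.08-fold higher in mt-Nd6 (519 bases). It was 3.66-fold higher in mt-Co2, 4.46-fold in mt-Nd3, 5.05-fold in mt-Atp6 and 9.22-fold in mt-Nd4l. The log2 ratio had a rho of -0.77 with gene length over the 14 genes (r -0.85 with log2 length). Over the 7 without a chromosome 1 copy, rho was -0.04 (r -0.67). hDISC1AA/+ replicate 1 was the lowest of the 7 libraries for all 15 tested members, where it was lowest for 24.8% of all 17670 genes tested. WT replicate 1 was the highest for 14 of the 15, all but mt-Tp, where it was highest for 28.2% of all genes.

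Nuclear coding genes of like length lay close to the 5 libraries. In hDISC1AA/+ replicate 1 the median log2 ratio to the 5 libraries was -0.09 for 30 nuclear genes of at most 500 exonic bases, 0.17 for 265 genes of over 500 to 1000 bases, 0.16 for 1594 genes of over 1000 to 2000 bases and -0.05 for 8434 genes of over 4000 bases. In WT replicate 1 these medians were 0.14, 0.26, 0.20 and -0.02.

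**Figure D3:**
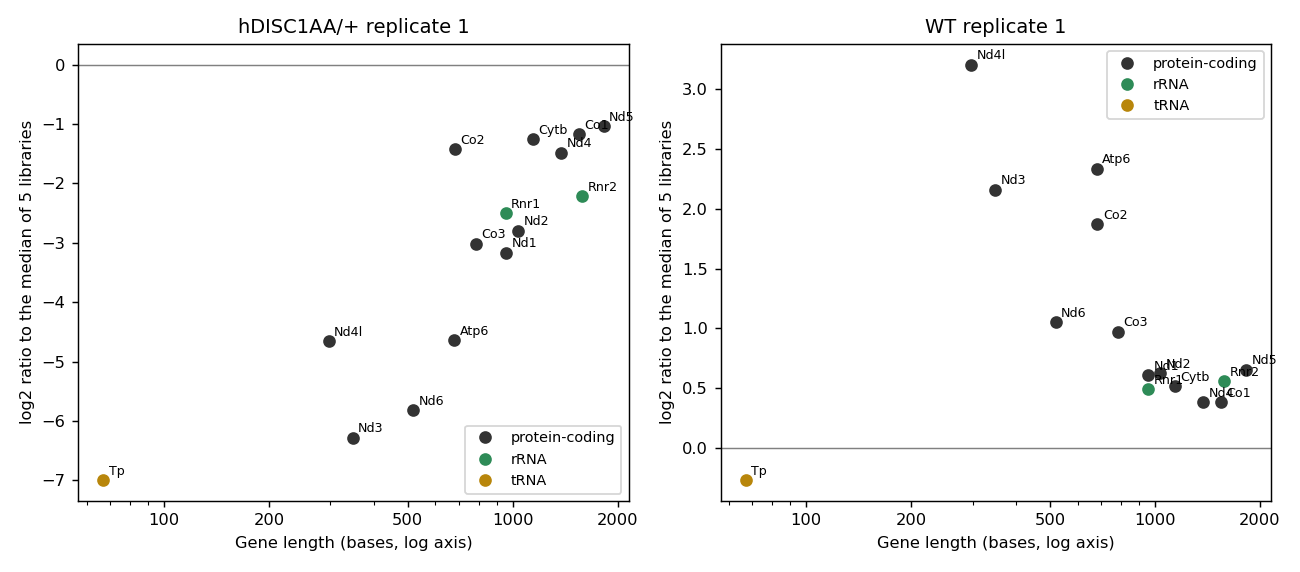
Log2 ratio of hDISC1AA/+ replicate 1 (left) and of WT replicate 1 (right) to the median of the other 5 libraries for the 15 tested members, against gene length in bases on a log axis, with colours for the RNA class. In hDISC1AA/+ replicate 1 mt-Tp at the left is the lowest point and mt-Nd5 at the right the highest, and in WT replicate 1 mt-Nd4l, mt-Atp6, mt-Nd3 and mt-Co2 lie highest.

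A stretch of the mitochondrial genome has a near-identical nuclear copy, and for the 5 genes copied over nearly their whole length the copy was in most libraries assigned more reads than the gene. Nuclear copies of mitochondrial DNA are relics of past transfers into the chromosomes. In the GENCODE transcripts, 7 annotated pseudogenes at chr1:24611535-24616197 of GRCm38 (minus strand, 4663 bases) match the end of mt-Co1 (Gm29216), mt-Co2 (Gm28661), mt-Atp6 (Gm10925), mt-Co3 (Gm28437), mt-Nd3 (Gm28438), mt-Nd4l (Gm10222) and the first 876 bases of mt-Nd4 (Gm28439). Of these copies 5 were identical to the member over their whole length, and the spacing between neighbours was the same on chromosome 1 as in the mitochondrial genome for 5 of the 6 neighbouring pairs. One of them is the space of 233 bases between the copies of mt-Co2 and mt-Atp6, where mt-Atp8 lies in the mitochondrial genome and no pseudogene is annotated on chromosome 1.

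The sequences show how little separates the copies. Gm28438 (chr1:24612775-24613119, minus strand) differs from mt-Nd3 over its whole length only by T3C, counted from the first base of mt-Nd3; the first 60 bases of both are printed with that base in capitals (chrM:9459-9518 and chr1:24613060-24613119).
mt-Nd3: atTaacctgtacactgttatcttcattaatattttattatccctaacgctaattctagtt
Gm28438: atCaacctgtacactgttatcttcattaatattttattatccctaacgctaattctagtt
In mt-Co1 the copy begins at base 1054, and all 6 differences (T1056A, C1057T, A1059G, A1060G, C1062A and A1066T, counted from the first base of mt-Co1) fall in its first 13 bases, shown in capitals for mt-Co1 at chrM:6381-6440 and Gm29216 at chr1:24616138-24616197 (minus strand).
mt-Co1: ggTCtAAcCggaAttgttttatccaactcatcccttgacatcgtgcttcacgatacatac
Gm29216: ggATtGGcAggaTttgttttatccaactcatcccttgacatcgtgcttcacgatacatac

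Of all windows of 100 bases, 97.6% to 99.9% in mt-Co2, mt-Atp6, mt-Co3, mt-Nd3 and mt-Nd4l occurred without mismatch in a nuclear transcript. The share was 60.8% in mt-Nd4, 30.8% in mt-Co1 and 3.19% in mt-Nd2, and 0% in mt-Rnr1, mt-Rnr2, mt-Nd1, mt-Nd5, mt-Nd6, mt-Cytb and mt-Atp8. Less complete matches lay on other chromosomes. On chromosome 2, Gm13339, Gm13340 and Gm13341 held 8.19%, 27.5% and 35.3% of the windows of 50 bases of mt-Nd2, mt-Co1 and mt-Co2. Some windows of 50 bases of mt-Nd5 occurred in Gm4076 and Gm11407, and some of mt-Rnr2 in Gm20594. Only annotated transcripts were searched, so copies without annotation were not found. The 5 genes copied over nearly their whole length had the lowest levels of the tested coding and rRNA genes, at 985.9 to 9461 normalized counts per kilobase (mean of 7 libraries), against 52228 to 465007 for the other 9.

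Taken as a sum, the copies of these 5 genes held more than the genes themselves in all 7 libraries. Gm10925, the copy of mt-Atp6, had 24113, 16293 and 8199 in WT and 298.3, 20217, 19972 and 15730 in hDISC1AA/+, normalized counts in the order of libraries used so far. Gm28438 had 2705, 1909 and 1592 in WT and 0, 2396, 2459 and 2223 in hDISC1AA/+, so that the copy of mt-Nd3 was also at 0 in hDISC1AA/+ replicate 1. Summed over the 5 genes and their copies, the copies held 76.6% to 81.4% of the normalized counts in the 5 libraries, 72.4% in hDISC1AA/+ replicate 1 and 62.6% in WT replicate 1. For mt-Nd4l the copy held less than the gene in WT replicate 1 (47.6%) and 76.0% to 79.4% in the 5 libraries. For mt-Co1 and mt-Nd4, which have long stretches outside the block, the copies held 0.783% to 1.59% and 0.0829% to 6.67%.

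Adding each copy to its gene lowered the ratio of WT replicate 1 to the other libraries for the 5 wholly copied genes and not for mt-Co1 and mt-Nd4. The ratio to the median of the 5 libraries went from 3.66 to 1.54 for mt-Co2, from 5.05 to 1.85 for mt-Atp6, from 1.96 to 1.74 for mt-Co3, from 4.46 to 1.54 for mt-Nd3 and from 9.22 to 3.81 for mt-Nd4l. For mt-Co1 it was 1.30 before and 1.31 after, and for mt-Nd4 1.30 and 1.34. With the copies added, hDISC1AA/+ replicate 1 lay further under that median for mt-Atp6 (48.4-fold lower, against 25-fold for the gene alone) and mt-Co2 (4.19-fold, against 2.68-fold), and nearer to it for mt-Co3 (6.48-fold, against 8.10-fold). It was 26.7-fold lower for mt-Nd4l, 2.91-fold for mt-Nd4 and 2.25-fold for mt-Co1, and at 0 for mt-Nd3 with its copy. With their copies the 5 genes had 4324 to 26492 normalized counts per kilobase, still under the 52228 of mt-Nd6, the lowest of the other 9. How the authors treated reads that match several places is not given in the sources used here, and its part in these levels was not tested.

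**Figure D4:**
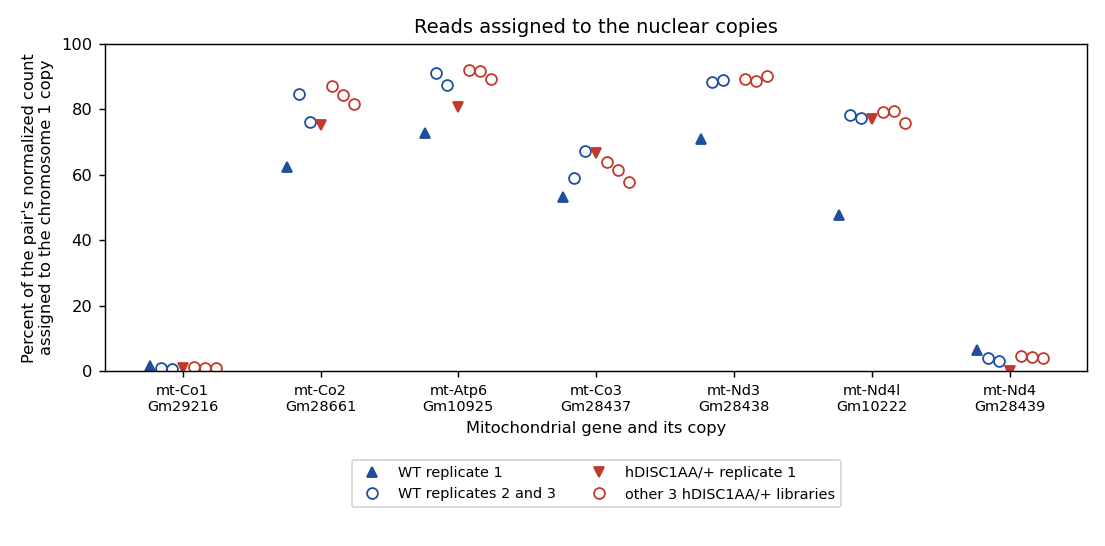
Percent of the summed normalized count of each mitochondrial gene and its chromosome 1 copy that was assigned to the copy, 1 point per library. The points of mt-Co2, mt-Atp6, mt-Nd3 and mt-Nd4l lie at 76.0% to 91.9% in the 5 libraries drawn as circles, WT replicate 1 is the lowest point in all 5 of the wholly copied genes, and mt-Nd3 has no point for hDISC1AA/+ replicate 1, where both are 0.

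The tRNA genes, 59 to 75 bases long, had next to no reads, with 1 exception. Of the 22, 10 had no read in any library. The exception was mt-Tp, the tRNA of proline (chrM:15356-15422, minus strand), with normalized counts of 2355, 2817 and 979.7 in WT and 22.2, 2837, 3316 and 3501 in hDISC1AA/+. The 21 other tRNA genes together had 176 reads in WT replicate 1, 1 read each in WT replicate 3 and the unnumbered hDISC1AA/+ library and none in the other 4. After mt-Tp, the highest means were those of mt-Tc, the tRNA of cysteine, with 93 reads in WT replicate 1, mt-Tl1, a tRNA of leucine, with 25, and mt-Tn, the tRNA of asparagine, with 16. In WT replicate 1 reads were assigned to all 8 tRNA genes annotated on the minus strand and to 4 of the 14 on the plus strand.

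Position sets mt-Tp apart from most tRNA genes. On one side it abuts mt-Tt with no base between them, and on the other no annotated gene follows. Free space of this kind is rare: mt-Tc has 32 bases between it and mt-Tn, and the gaps between all other neighbouring genes are 5 bases or fewer, with overlaps in places. The first tRNA gene of the genome, mt-Tf (chrM:1-68, plus strand), has no annotated gene before it either and had no read in any library. The sequences of mt-Tp, mt-Tc and mt-Tf are shown as the tRNA genes with reads in several libraries and the one with like free space and none.
mt-Tp: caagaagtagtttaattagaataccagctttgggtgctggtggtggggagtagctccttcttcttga
mt-Tc: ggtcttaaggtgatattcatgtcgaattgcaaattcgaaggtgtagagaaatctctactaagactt
mt-Tf: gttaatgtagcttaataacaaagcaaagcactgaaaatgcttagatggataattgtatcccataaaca
Nuclear genes of at most 100 bases did have reads in all libraries. Of 2173 such genes, 317 to 375 had a read in a given library, and they took 114 RPM (reads scaled to a common library size) in WT replicate 1, 207 RPM in hDISC1AA/+ replicate 1 and 130.3 to 447 RPM in the other 5. In every library most of these reads lay in microRNA genes. These held 4090 of 7301 reads in WT replicate 1, 6132 of 6926 in hDISC1AA/+ replicate 1 and 15003 of 16092 in hDISC1AA/+ replicate 4. Genes of small nucleolar RNAs took 14.4 to 25.5 RPM, and those of small nuclear RNAs 0.955 to 5.15 RPM. Whether the reads came from RNAs as short as the tRNAs was not tested. The library with the most tRNA genes detected had the lowest share of reads in short nuclear genes.

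Between the genotypes no mitochondrial gene passed the test. Of the 37 members 15 were tested (12 coding genes, both rRNA genes and mt-Tp), and 0 had a limma adjusted p under 0.05, as did 0% of all 17670 genes tested (431 genes, 2.44%, had an unadjusted p under 0.05, and 0 of the members; edgeR and DESeq2 also called 0 genes, with 458 and 510 at an unadjusted p under 0.05). All 15 fold changes were below 0, where 52.2% of all genes tested were, and their median was -0.85 on the log2(normalized count + 1) scale, against -0.01 over all genes. The groups overlapped for all 15, while 5.04% of all genes had groups that did not (2.84% lower and 2.2% higher in hDISC1AA/+). The member with the smallest unadjusted p was mt-Nd5, with 229585 ± 60191 in WT (SD, n = 3) and 162607 ± 53995 in hDISC1AA/+ (SD, n = 4), a log2 fold change of -0.54 (95% CI -1.21 to 0.14; limma adjusted p = 0.974; exact permutation p = 0.257 over 35 splits, two-sided, where the smallest possible is 0.0286). The smallest fold change was that of mt-Co1 (789910 ± 135874 and 664830 ± 237493, log2 fold change -0.33, 95% CI -1.07 to 0.41), and the largest that of mt-Nd3 (-2.47, 95% CI -7.71 to 2.78). The value of mt-Nd3 includes hDISC1AA/+ replicate 1, where it had no read. With edgeR it was -1.29, and the largest was that of mt-Nd4l (-2.10). The exact permutation p of the members ran from 0.257 to 1. The one member whose mean normalized count was higher in hDISC1AA/+ was mt-Tp, at 2419 ± 1622 against 2051 ± 956, although its log2 fold change was -0.998 (95% CI -5.86 to 3.86); on the recovered reads it was 0.24 with edgeR.

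These fold changes depended on the 2 libraries that stood apart. Without hDISC1AA/+ replicate 1, 13 of the 15 were still below 0, with a median of -0.14. Without WT replicate 1 all 15 were below 0, with a median of -0.48. Without both, 13 of 15 were above 0, with a median of 0.16 and a range of -0.08 (mt-Nd5) to 0.95 (mt-Tp). The 2 WT libraries left in that fit differed in mt-Tp, with normalized counts of 2817 and 979.7. The intervals were then narrow for the abundant genes: mt-Cytb was 0.06 (95% CI -0.15 to 0.27), mt-Co1 0.12 (95% CI -0.10 to 0.35), mt-Nd1 0.06 (95% CI -0.13 to 0.26) and mt-Rnr2 0.19 (95% CI 0.01 to 0.36), all with a limma adjusted p of 0.9997. Beside mt-Rnr2, mt-Atp6 (0.43) had an unadjusted p under 0.05, and neither passed the adjusted threshold. These intervals come from 2 WT and 3 hDISC1AA/+ libraries kept after their values were seen.

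**Figure D5:**
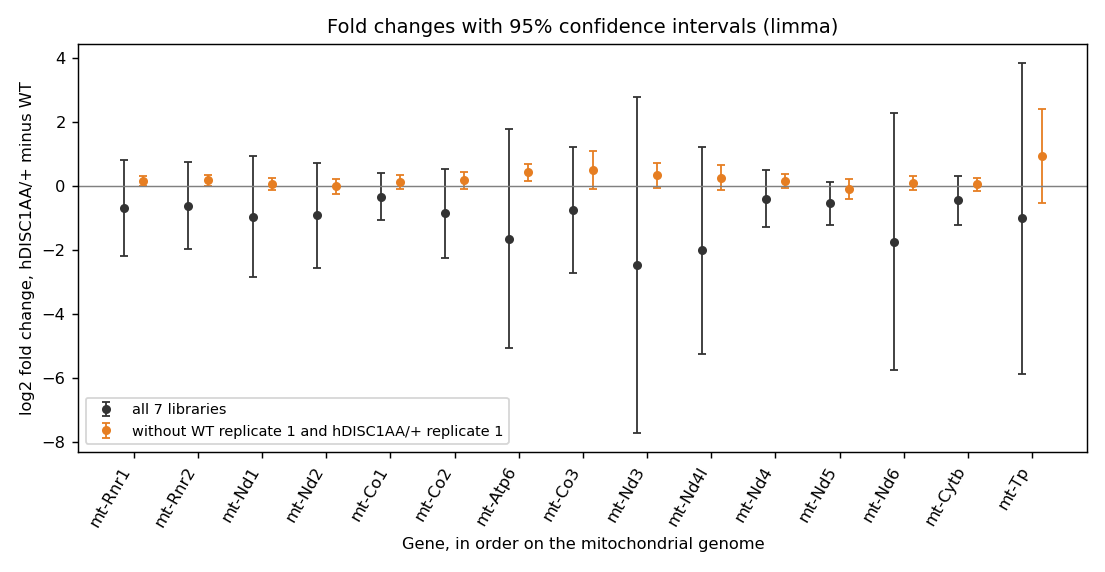
Log2 fold changes (hDISC1AA/+ minus WT) of the 15 tested members with their 95% confidence intervals from limma, with all 7 libraries and without WT replicate 1 and hDISC1AA/+ replicate 1. All 15 points lie below 0 in the first fit with intervals that include 0, and 13 lie above 0 in the second, with much shorter intervals.

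No nuclear gene that acts on the mitochondrial genome passed the test either. Of 183 tested members of 9 lists of partner genes and comparison RNAs, 0 passed. For transcription of the genome 7 of 11 genes were lower in hDISC1AA/+ (median log2 fold change -0.02); those with the smallest p were Top1mt, a mitochondrial topoisomerase (-0.28), the termination factor gene Mterf1a (0.23) and Mrpl12 (-0.15). For its replication and upkeep 11 of 13 were higher (median 0.08); those with the smallest p were Endog, a mitochondrial nuclease (0.36), the DNA ligase gene Lig3 (0.13) and, among the lower ones, Rrm2b, a ribonucleotide reductase subunit (-0.24). Among 16 genes for cleavage and maturation of the RNAs 10 were lower (median -0.05). Trnt1, which adds CCA to tRNAs, was at -0.30 (95% CI -0.60 to -0.01, limma adjusted p = 0.974), Pde12, which removes poly(A), at -0.21 and Ptcd2 at -0.14. For RNA stability and decay 5 of 6 were lower, though only slightly (median -0.01). They included the helicase gene Supv3l1 (-0.06) and Lrpprc (-0.01), whose protein stabilises the messenger RNAs, beside the RNA-binding protein gene Grsf1 (0.04). Of 26 genes for rRNA and tRNA modification and for translation 15 were higher (median 0.02), with Trit1 at 0.25, Rpusd3 at 0.33 and Trmu at 0.30. Of these medians 3 changed sign with 1 of the 2 libraries left out: without WT replicate 1 that for cleavage and maturation was 0.00343 and that for RNA stability 0.02, and without hDISC1AA/+ replicate 1 that for transcription was 0.02. Scaling to all assigned reads also changed the sign of these 3, to 0.03, 0.07 and 0.06 in the same order.

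The nuclear subunits of the same enzymes were not low in hDISC1AA/+ replicate 1. Of 70 nuclear subunit genes of complexes I, III, IV and V, 58 were lower in hDISC1AA/+, where 52.2% of all genes tested were. Their median log2 fold change was -0.07. It was above 0 without WT replicate 1, at 0.12, and with scaling to all assigned reads, at 0.02. The subunit genes with the smallest p were Ndufb10 (0.46, limma adjusted p = 0.974), Ndufb4 (0.16) and Ndufc1 (-0.28). Their median level lay 0.20 above the mean of the 5 libraries in hDISC1AA/+ replicate 1, the library where all tested members of the mitochondrial genome were lowest, and 0.51 above it in WT replicate 1 (log2 scale).

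Several other lists stood apart in WT replicate 1. In hDISC1AA/+ replicate 1 the summed oligodendrocyte and microglial markers lay within the range of the 5 libraries. The sums of the other lists given here lay outside it, some of them only slightly. The part of these lists in the values of the mitochondrial genes was not tested. On the same scale, the list of RNAs without a poly(A) tail lay 0.30 above the mean of the 5 libraries in WT replicate 1. It lay at -0.46 in hDISC1AA/+ replicate 1 and at -0.12 to 0.03 in the 5 libraries. Of its 20 members 9 were tested, Rn7sk and histone genes, and 7 of these were lower in hDISC1AA/+. Those with the smallest p were Hist1h4i (0.53), Hist1h1e (-0.62) and Hist1h2be (-0.31). Whether the RNAs of these genes lacked a tail in this tissue was not tested. Nuclear-retained long RNAs (7 of 10 higher, with Neat1 at 0.41, Mirg at 0.45 and Meg3 at 0.39) lay at -0.998 in WT replicate 1. They lay at -0.40 in hDISC1AA/+ replicate 1 and at -0.25 to 0.22 in the 5 libraries. Their median log2 fold change was 0.33, and -0.02 without WT replicate 1. Messenger RNAs of cytosolic ribosomal proteins (15 of 22 lower, with Rpl19 at -0.42, Rpl10 at -0.10 and Rps2 at 0.08) lay at 0.57 in WT replicate 1. They lay at 0.19 in hDISC1AA/+ replicate 1 and at -0.20 to 0.09 in the 5 libraries. Oligodendrocyte markers, all 8 lower in hDISC1AA/+, summed to 41422 to 137560 normalized counts in WT and 39161 to 45688 in hDISC1AA/+, the highest being WT replicate 1. Endothelial and mural markers, all 8 higher, summed to 3339 to 11021 and 8199 to 10564, with WT replicate 1 the lowest. Astrocyte markers (8 of 8 lower) summed to 174612 to 263755 and 154874 to 189825, and microglial markers (7 of 7 lower) to 11148 to 16536 and 10573 to 12671, each highest in WT replicate 1. The astrocyte sum was lowest in hDISC1AA/+ replicate 1. Blood markers (4 of 5 higher) summed to 2836 to 17007 and 4079 to 18093, highest in hDISC1AA/+ replicate 1. Markers of the tissues beside prefrontal cortex (5 of 8 tested higher) summed to 3591 to 3772 and 3457 to 5136. Without WT replicate 1 the median log2 fold change of the cytosolic ribosomal protein genes went from -0.02 to 0.18. That of Rn7sk and the histone genes went from -0.11 to 0.07. With scaling to all assigned reads the median of the cytosolic ribosomal protein genes was 0.07. No marker of any of these cell types was at 0 in a library.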

How the data were processed

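RNA of prefrontal cortex was sequenced in 7 libraries (3 WT, 4 hDISC1AA/+). Per the labels' protocols, Trizol was used on frozen tissue to obtain total RNA, and NEBNext Ultra (an RNA library kit) to build the libraries; strand is not mentioned. As software, the submitters' processing notes name HISAT2 2.1.0, Trimmomatic 0.39, DESeq2 1.26.0 and HTSeq 0.6.1, and as build mm10. The annotation, the strand setting and how multiply matching reads were counted are unknown, being not given in the sources used here.

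As deposited by the authors, the table holds a signal per gene and library, called normalized count here; within a tolerance of 0.01 reads, 100% of the values above 0 were whole multiples of 1 step per column, so each library was scaled by 1 size factor, and the reads were recovered from that step. Of the 7 columns 6 carry a sample title, and replicates were numbered by record. For 3 genes, none of them a member, identifier and values stood on separate lines and were left out (0.0120% to 0.0169% of the values). Symbols, positions and transcript sequences come from GENCODE M21 (GRCm38, the assembly that mm10 names), which held 42459 of the 43626 identifiers and all 37 members.

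The 17670 genes that reached a normalized count of 10 in 3 or more libraries were tested with limma 3.58.1 (moderated linear model, intensity trend, robust variances) on log2(normalized count + 1) in R 4.3.3, two-sided, with Benjamini-Hochberg adjustment over all genes tested and a threshold of 0.05. Fold changes are hDISC1AA/+ minus WT on that scale. The added 1 shrinks those of low genes, while a near-empty library can enlarge them. For mt-Nd3 the fold change was -2.47 on that scale and -1.29 with edgeR. For each member an exact permutation test used the 35 divisions of 7 libraries into 3 and 4. Alternatives were other pseudocounts, scalings and filters, edgeR 4.0.16 and DESeq2 1.42.0 on the recovered reads, and leaving out libraries. The calculations were tested on simulated counts. Windows of 50, 100 and 150 bases of each member were searched, on both strands, in all other transcripts of GENCODE M21. All coding and rRNA members and mt-Tp are named with values, the other tRNA genes by count and the 3 with the highest means, and of each partner list the 3 members with the smallest p. The members and lists were chosen with earlier results of these data known.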

Additional observations from a re-analysis of the deposited data

Results flagged for a closer look

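Among the 4 hDISC1AA/+ libraries, the value of replicate 1 stood apart from the other 3 by Dixon's ratio (its gap to the nearest library divided by the range of the group, above the critical value for 4 samples) in 8 of 19 sets of values examined; chance alone gives about 1 in 20. The sets are not independent, since they share the same libraries. The ratio was 0.929 for mt-Atp6, 0.912 for mt-Co3, 0.901 for mt-Rnr1, 0.890 for mt-Rnr2, 0.832 for mt-Nd4 and 0.830 for mt-Nd1. It was 0.938 for the percent of assigned reads taken by the rRNA genes and 0.835 for that taken by the tRNA genes. In all 8 the library that stood apart was the lowest. The 3 WT libraries are too few for this ratio, so the higher values of WT replicate 1 were not examined in this way.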

How the results depend on the processing

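No setting called a gene: the count of genes past the threshold was 0 in all 17 fits. All 15 tested members kept a fold change below 0 under other pseudocounts, all scalings and no filter. With edgeR and DESeq2, mt-Tp alone turned, to 0.242 and 0.244. Left-out libraries mattered most. With 1 library left out, the median of the coding members (-0.88 with all) ran from -1.11 to -0.243, the difference in share (-1.05 percentage points with all) from -1.50 to -0.128, mt-Co3 from -1.19 to 0.0271 and mt-Tp from -1.63 to 0.780; the upper ends were those without hDISC1AA/+ replicate 1. Without it and WT replicate 1 the median was 0.142 and 13 members turned. Over all these settings the lowest value and, as the highest, that without both libraries were: mt-Co3 from -1.19 to 0.503, mt-Tp from -1.63 to 0.948, mt-Rnr1 from -0.913 to 0.162, mt-Rnr2 from -0.826 to 0.187, mt-Nd1 from -1.26 to 0.0640, mt-Co1 from -0.484 to 0.124, mt-Co2 from -1.22 to 0.179, mt-Atp6 from -2.203 to 0.433, mt-Nd3 from -3.201 to 0.339, mt-Nd4l from -2.59 to 0.260, mt-Nd4 from -0.552 to 0.159, mt-Nd6 from -2.29 to 0.0884 and mt-Cytb from -0.600 to 0.0579. The difference in share was -0.894 without rRNA genes, -0.749 for coding genes without mt-Nd5 and, as chosen after seeing the data, -1.07 with the chromosome 1 copies and 0.466 without both libraries. On the recovered reads the median of the coding members was -0.558 with edgeR and -0.556 with DESeq2. No paired analysis was possible because the sample titles share no replicate numbers between the groups. Few reads limit the values of mt-Nd3, mt-Nd4l and the tRNA genes in hDISC1AA/+ replicate 1, with 21 reads or fewer each. The depth of that library was close to that of most others.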
